A study of Danio rerio with 12 samples.

Results

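Bisphenol AF (BPAF) was compared with solvent in the livers of male zebrafish, over all genes that reached 1 TPM (a transcript level scaled to gene length and to the total of the library) in at least 3 of the 6 male libraries. This rule kept 10491 of the 32520 listed genes (32.3%), of which 7685 reached 1 TPM in all 6 libraries and 873 in exactly 3. Of those 873, 110 reached it in the 3 exposed males only and 10 in the 3 control males only. In these genes the rule itself keeps the groups from overlapping. The remaining genes were listed at 0 in all 6 males (7631) or stayed below the rule (14398). The exposed group, male BPAF, held 3 libraries from males kept for 28 days with 10 µg/L BPAF, and the control group, male DMSO, held 3 libraries from males kept with 0.0001% of the solvent dimethyl sulfoxide (DMSO). All fish were adult wild types of the TU strain, 4 months old. The labels give no solvent level for the exposed fish and do not say whether a library came from 1 animal or a pool, so BPAF and solvent cannot be told apart, and each p-value reflects the spread among these 6 samples, which may be technical. The same design was run in females. Their libraries are used here for the difference between the sexes, for a fit over all 12 libraries, and for levels and spread set beside those of males.

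BPAF is a bisphenol A analogue in which the methyl groups of the bridge carry fluorine, and bisphenols are studied as ligands of estrogen receptors. In egg-laying vertebrates, estrogen acting on the liver switches on the yolk precursor vitellogenin, which male liver normally makes only at low levels, so vitellogenin in males is a widely used sign of estrogenic exposure. The liver also clears such phenols by adding glucuronate or sulfate to them, and it controls lipid, bile acid, glucose, retinoid and iron metabolism.

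The labelled tissue matched its markers. All 17 hepatocyte genes matched were above the rule, and together they summed to 180373, 262230 and 208998 TPM in the exposed males and 232264, 217318 and 198993 TPM in the control males. The liver fatty acid carrier fabp10a was at 36665, 116294 and 90973 TPM in the exposed males and at 56627, 77840 and 64467 TPM in the control males.

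The library male BPAF 1 stood apart. It held 12313 genes at 1 TPM or more, against 10198 and 10373 in the other exposed males and 9952, 9842 and 9108 in the control males. The mean was 10961 ± 1174 genes per exposed library and 9634 ± 459 per control library (SD, n = 3 each), with an exact 2-sided permutation p of 0.1, the smallest that 20 splits allow. At 5 TPM or more the means were 5008 ± 859 and 4268 ± 389 genes (exact permutation p = 0.3). On the first principal component of the male libraries, which took 36.6% of the variance, male BPAF 1 lay at -68.5 and the other 5 libraries between -13.5 and 40.3. Trimmed-mean scaling, which sets libraries on the level shared by most genes, gave male BPAF 1 a factor of 1.55 and the other males factors of 0.745 to 0.991. Sequencing depth cannot be read from TPM, so its part in these numbers was not tested. Results that lean on male BPAF 1 are therefore given with and without it.

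No gene passed the test between exposed and control males. Values were compared as log2(TPM + 1) with limma, a linear model that shares spread among genes, and 0 of 10491 genes (0%) had a Benjamini-Hochberg adjusted p under 0.05. The smallest adjusted p was 0.199. At an unadjusted p under 0.05, 464 genes (4.42%) were higher and 42 (0.4%) lower in exposed males. With trimmed-mean scaling the same counts were 185 higher and 167 lower, and with quantile normalization 182 and 150, so the split between directions depended on the scaling. Without male BPAF 1 there were 314 higher (2.99%) and 84 lower (0.801%).

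The lean is also seen in the whole distribution of differences. The median log2 fold change over all genes was 0.24, and 81.2% of genes had a positive one. Trimmed-mean scaling gave a median of -0.05, quantile normalization one of -0.02 and leaving out male BPAF 1 one of 0.09. A gene near 0.24 is thus in the middle of the table. In the same-numbered pairs of an exposed and a control male, the median difference was 0.39 for number 1, 0.08 for number 2 and 0.26 for number 3.

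Every exposed male lay above every control male in 1013 genes (9.66%) and below every control male in 58 (0.553%). These include the 110 and 10 genes that reached 1 TPM in a single group only. With trimmed-mean scaling these counts were 307 and 504, and with quantile normalization 330 and 401. The share that lay above was 11.3% among genes averaging under 5 TPM, 8.65% between 5 and 50 TPM and 3.65% at 50 TPM or more. Exposed males were higher in all 3 same-numbered pairs for 3719 genes (35.4%) and lower in all 3 for 317 (3.02%). Same-numbered libraries deviated together, so the replicate number was also fitted as a block: 1107 genes (10.6%) were then higher and 87 (0.829%) lower at an unadjusted p under 0.05, and 0 passed adjustment (smallest adjusted p 0.105).

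**Figure D1:**
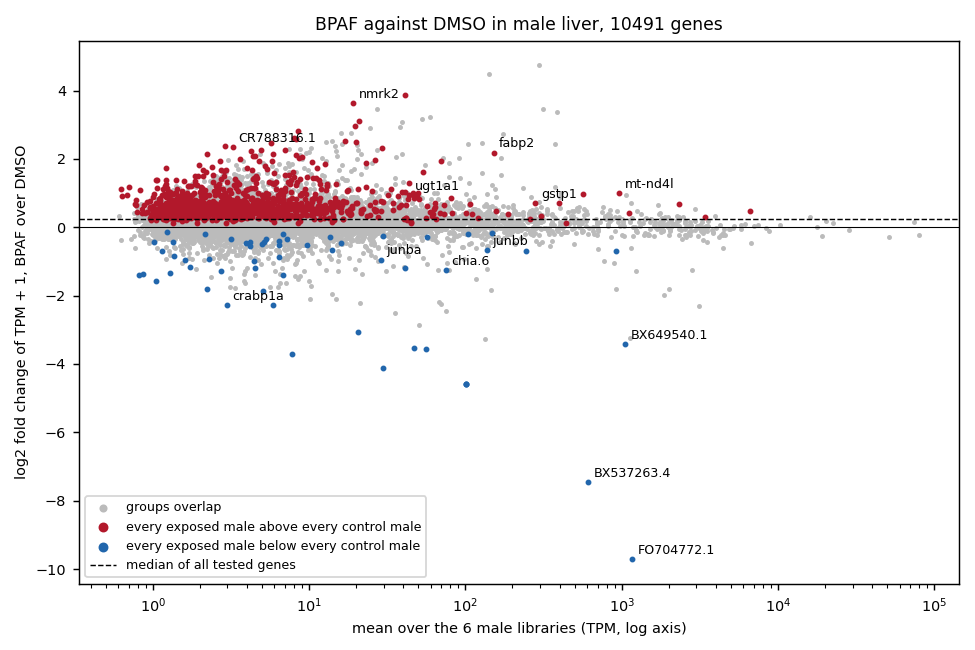
Each point is 1 of the 10491 genes, with its mean TPM over the 6 male libraries on a log axis against its log2 fold change of TPM + 1, BPAF over DMSO. Red points are genes with all 3 exposed males above all 3 control males (1013), blue points those with all 3 below (58), and the dashed line is the median of 0.24. Where a gene was listed at 0 in all libraries of a group, as for FO704772.1 and BX537263.4, its plotted position depends on the added 1 TPM.

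Among the 12 higher genes with the smallest p whose groups did not overlap, nmrk2 had the largest fold change. It encodes a nicotinamide riboside kinase, which makes a precursor of NAD. The gene nmrk2 was at 39.6, 30.4 and 36.6 TPM in exposed males and at 4.46, 0 and 3.62 TPM in control males, a log2 fold change of 3.63 ± 0.62 (SE, limma adjusted p = 0.413). All 3 exposed males stood far above the highest control, and the difference was 3.55 without male BPAF 1 and 3.33 with trimmed-mean scaling.

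Of the genes that were higher, CR788316.1 had the smallest p (ENSDARG00000105731). Its symbol is that of a clone, and the files describe it as verrucotoxin subunit beta-like. It was at 5.74, 6.06 and 6.53 TPM in exposed males and at 0.85, 0.02 and 0.45 TPM in control males (log2 fold change 2.34 ± 0.29, limma adjusted p = 0.199). The exposed males were close to each other and the controls near 0. The gene si:ch211-261n11.7, which has no descriptive name, was at 3.76, 3.04 and 4.16 TPM in exposed and 0.27, 0.16 and 0.5 TPM in control males (log2 fold change 1.83 ± 0.24, limma adjusted p = 0.199). The gene si:ch73-167f10.1 was at 3.25, 2.49 and 1.5 TPM in exposed males and listed at 0 in all 3 controls. Each of these genes reached 1 TPM in exposed males only, so the rule that kept them fixed their separation.

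Of the other genes on that side, gstp2 encodes a pi-class glutathione S-transferase, which joins glutathione to reactive compounds. It was at 1.56, 1.09 and 1.05 TPM in exposed males and at 0.08, 0 and 0 TPM in controls. The transcription factor gene mafa, known in mammals as an activator of the insulin gene, was at 3.06, 2.65 and 3.41 TPM in exposed and 0.46, 0.58 and 1 TPM in control males. The mitotic checkpoint kinase gene ttk was at 2.44, 1.59 and 2.17 TPM in exposed and 0.16, 0.32 and 0.53 TPM in control males. These 3 were low. Their log2 fold changes were 1.11 ± 0.20 for gstp2, 1.27 ± 0.25 for mafa and 1.2 ± 0.24 for ttk, with limma adjusted p-values of 0.489, 0.621 and 0.621. For gstp2 and ttk only exposed males reached 1 TPM, so the rule that kept them fixed their separation.

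A fit over all 12 libraries, both sexes, called 8 genes in males: FO704772.1 lower, and CR788316.1, si:dkey-26m3.3, si:ch211-160o17.3, si:ch73-167f10.1, si:ch211-261n11.7, gstp2 and CU928063.1 higher (limma adjusted p 0.00287 to 0.0466). That fit takes part of its spread from female livers, where each of the 8 averaged 1.02 TPM or less. Over the 2761 genes that passed the expression rule in males but not in females, the median SD between replicates on the log2 scale was 0.439 in males and 0.266 in females. In the fit of the male libraries alone, none of the 8 passed. Each of the 8 reached 1 TPM in the males of a single group only, so the expression rule kept it through that group.

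Among abundant genes, averaging at least 50 TPM, those higher without overlap included fth1a, which encodes the iron-storing ferritin heavy chain. It was at 482, 466 and 510 TPM in exposed and 190, 381 and 351 TPM in control males (log2 fold change 0.72 ± 0.33, limma adjusted p = 0.913; 0.34 with trimmed-mean scaling). The gene aldh1l1, an enzyme of folate metabolism, was at 81.1, 113 and 119 TPM in exposed and 47.3, 79.1 and 48.1 TPM in control males (log2 fold change 0.85 ± 0.34). The sodium pump subunit gene atp1b1a was at 65.1, 52 and 76.7 TPM in exposed and 50.8, 31.9 and 28.4 TPM in control males, so the lowest exposed male was just above the highest control.

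**Figure D2:**
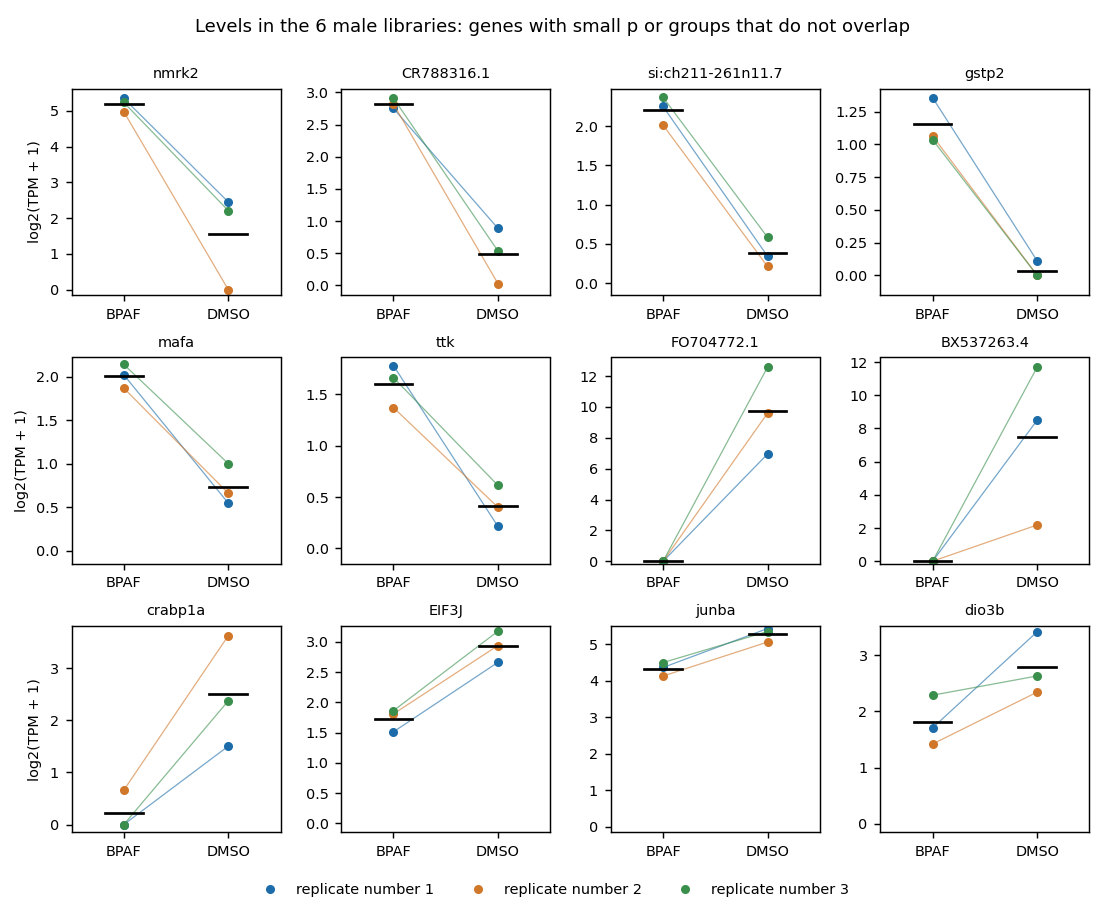
Levels as log2(TPM + 1) of 12 genes in the 6 male libraries, exposed at the left of each panel and control at the right, with lines joining same-numbered libraries and black bars at the group means. The groups do not overlap in any panel: nmrk2 to ttk are higher in exposed males and FO704772.1 to dio3b lower. Where a single group reached 1 TPM, the expression rule fixed this. Each panel has its own vertical scale.

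On the lower side, the smallest p belonged to FO704772.1 (ENSDARG00000111902), also named after a clone. It was listed at 0 in all 3 exposed males and was at 123, 772 and 6080 TPM in the control males (limma adjusted p = 0.199). The controls differed widely among themselves. Leaving out male DMSO 1, this gene alone passed, with an adjusted p of 0.00872. The clone-named BX537263.4 was also listed at 0 in the exposed males, with 360, 3.54 and 3304 TPM in the controls. Both genes were kept by the expression rule through the control males only.

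Several abundant genes on the lower side had their highest level in the single library male DMSO 3. The gene rpph1, the RNA component of ribonuclease P that trims transfer RNA precursors, was at 2.48, 1.47 and 7.29 TPM in exposed and 8.82, 41.8 and 276 TPM in control males (log2 fold change -3.56 ± 1.08, limma adjusted p = 0.913). The clone-named BX649540.1 was at 64.6, 72.5 and 139 TPM in exposed and 142, 1215 and 4703 TPM in control males. The 3 clone-named genes FP102120.3, FP102120.2 and CU695141.1 had the same 6 values, 0, 6.58 and 6.47 TPM in exposed and 24.8, 60.4 and 510 TPM in control males. Whether they are copies that share reads was not tested, and the value of each is uncertain.

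Protein-coding genes were also found on the lower side. The gene crabp1a, which encodes a carrier of retinoic acid inside the cell, was at 0, 0.58 and 0 TPM in exposed and 1.84, 11.4 and 4.19 TPM in control males (log2 fold change -2.28 ± 0.51, limma adjusted p = 0.811). EIF3J, a subunit of a translation initiation complex, was at 1.85, 2.5 and 2.63 TPM in exposed and 5.32, 6.66 and 8.03 TPM in control males (log2 fold change -1.2 ± 0.28, limma adjusted p = 0.892). The tetraspanin gene tspan9a was listed at 0 in the exposed males and was at 2.08, 1.1 and 3.15 TPM in the controls. In each of these, all controls lay above all exposed males. For crabp1a and tspan9a only control males reached 1 TPM, so the rule that kept them fixed this. Among the abundant ones, the acidic chitinase gene chia.6 (ENSDARG00000116259) was at 55.6, 51.4 and 26.1 TPM in exposed and 81.1, 93.6 and 142 TPM in control males, also without overlap (log2 fold change -1.26 ± 0.40, limma adjusted p = 0.913). The files list another gene under the same symbol.

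Genes for foreign-compound metabolism leaned higher, as the table as a whole did. Of 33 tested oxidation enzymes, the cytochromes P450 and flavin monooxygenases that act first on foreign compounds, 3 were higher and 0 lower at an unadjusted p under 0.05, where 4.42% of all genes were higher. Their median log2 fold change was 0.40, against 0.24 over all genes. It was 0.02 with trimmed-mean scaling, against -0.05, and 0.12 without male BPAF 1, against 0.09. Without that library, 3 were higher and 0 lower at that p, against 2.99% and 0.801% of all genes. The gene cyp2k18 was at 10.8, 5.68 and 10.2 TPM in exposed and 2.55, 2.19 and 4.62 TPM in control males (log2 fold change 1.26), and cyp2x9 at 11.8, 20.9 and 16.8 TPM in exposed and 11.4, 5.42 and 5.08 TPM in control males. For cyp1a, the main target of the aryl hydrocarbon receptor, the groups overlapped, with 158, 139 and 126 TPM in exposed and 183, 126 and 87.2 TPM in control males. For cyp3a65, a target of the pregnane X receptor, exposed males had 183, 171 and 403 TPM and control males 152, 107 and 201 TPM, higher in all 3 same-numbered pairs but overlapping between groups.

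Of 43 tested conjugation enzymes, 5 were higher and 0 lower at an unadjusted p under 0.05, and 6 were higher without overlap. Both counts include gstp2, which only exposed males brought to 1 TPM, so the expression rule fixed its separation. Over all genes, 4.42% were higher at that p and 9.66% without overlap. The median was 0.32, against 0.24, and -0.02 with trimmed-mean scaling, against -0.05. Without male BPAF 1, 5 were higher and 0 lower at that p, against 2.99% and 0.801%. The median was then 0.25, against 0.09. The glucuronosyltransferase ugt1a1 was at 61, 47.6 and 65.6 TPM in exposed and 34.2, 28.2 and 26.7 TPM in control males, a log2 fold change of 0.94 (0.57 with trimmed-mean scaling). The transferase gstp1, the abundant pi-class enzyme of this liver, was at 328, 350 and 360 TPM in exposed and 236, 245 and 165 TPM in control males (log2 fold change 0.70). The sulfotransferase sult1st1 was at 3.4, 5.48 and 3.81 TPM in exposed and 2.14, 2.7 and 1.93 TPM in control males, without overlap. Over 27 antioxidant genes, 0 were higher or lower at that p and the median was 0.21.

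Of 15 estrogen-responsive genes, 5 were tested, and 0 were at an unadjusted p under 0.05, where 4.42% of all genes were higher and 0.4% lower. All 5 had a negative log2 fold change, where 81.2% of all genes had a positive one. Their median was -0.61, against 0.24 over all genes, and -0.27 without male BPAF 1, against 0.09. The vitellogenin gene vtg1 was at 6.47, 8.61 and 11 TPM in exposed and 12.7, 48.6 and 5.92 TPM in control males, with the highest value in male DMSO 2. The related vtg2 was at 2.36, 5.69 and 7.12 TPM in exposed and 5.4, 21.6 and 3.85 TPM in control males. For vtg5 the direction turned on 1 library: it was at 1.53, 31.6 and 16.7 TPM in exposed and 4.55, 30.8 and 12.7 TPM in control males, and its log2 fold change of -0.24 became 0.84 without male BPAF 1. The estrogen receptor gene esr1 stayed under the rule at 0.55, 0.52 and 0.42 TPM in exposed and 0.55, 0.6 and 0.19 TPM in control males. The log2 fold change of vtg1 was -0.82 ± 0.66 and its SE is close to its size, so neither a rise nor a fall of this gene was detected with 3 against 3. How large a change this design could detect was not tested.

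Of 9 tested genes of thyroid hormone handling, dio3b was the 1 at an unadjusted p under 0.05, and without male BPAF 1 there were 0. Over all genes, 4.42% were higher and 0.4% lower at that p, and 2.99% and 0.801% without male BPAF 1. The gene dio3b encodes the deiodinase that inactivates thyroid hormone. It was at 2.27, 1.68 and 3.89 TPM in exposed and 9.69, 4.08 and 5.2 TPM in control males (log2 fold change -0.99 ± 0.38, limma adjusted p = 0.913), so all exposed males were below all controls. The activating deiodinases overlapped, with dio1 at 50.3, 121 and 103 TPM in exposed and 46.7, 116 and 58 TPM in control males and dio2 at 202, 67.8 and 36.5 TPM in exposed and 78.4, 60.9 and 55.7 TPM in control males. Among 18 genes of the growth hormone axis, igfbp2b, a binding protein of insulin-like growth factors, was at 8.69, 6.3 and 4.87 TPM in exposed and 3.91, 2.05 and 2.47 TPM in control males. The growth factor gene igf1 was at 40.1, 18.9 and 11 TPM in exposed and 22.6, 13.2 and 4.83 TPM in control males, higher in all 3 pairs and overlapping between groups.

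Retinoid genes went both ways. Of 19 tested, 4 were higher and 1, crabp1a, lower at an unadjusted p under 0.05, where 4.42% of all genes were higher and 0.4% lower. Without male BPAF 1 there was 1 higher and 1 lower. The gene bco1l, from a family of enzymes that cleave carotenoids, was at 8.91, 5.3 and 14.6 TPM in exposed and 2.97, 4.87 and 3.26 TPM in control males. The retinal dehydrogenase gene aldh1a2, whose product makes retinoic acid, was at 5.61, 1.33 and 6.25 TPM in exposed and 0.78, 0.59 and 1.57 TPM in control males, with 1 exposed male inside the control range. The retinol carrier gene rbp5 was at 59.4, 79.7 and 50.5 TPM in exposed and 33.6, 49.2 and 22.4 TPM in control males. The median of the 19 was 0.20, against 0.24 over all genes, and 0.27 without male BPAF 1, against 0.09.

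In bile acid synthesis and transport, 2 of 19 tested genes were higher and 0 lower at an unadjusted p under 0.05. Over all genes, 4.42% were higher and 0.4% lower. Without male BPAF 1, 1 was higher, against 2.99%. The median was 0.31, and 0.21 without male BPAF 1, against 0.24 and 0.09 over all genes. The gene cyp46a1.1, a cholesterol hydroxylase, was at 13.5, 10.4 and 26.4 TPM in exposed and 4.02, 4.1 and 7.95 TPM in control males (log2 fold change 1.43). The gene hsd3b7, an early enzyme of bile acid synthesis, was at 67, 68.5 and 48.7 TPM in exposed and 31.8, 39.2 and 23.6 TPM in control males (log2 fold change 0.95). Both were without overlap, while cyp7a1, the rate-limiting enzyme, differed far more with the replicate number than with exposure.

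Lipid and glucose genes were mostly indistinct. Of 18 cholesterol synthesis genes, sc5d was the 1 higher at an unadjusted p under 0.05, where 4.42% of all genes were higher. Without male BPAF 1, 0 were higher, against 2.99%. The gene hmgcra, the rate-limiting step, was at 16.5, 0.69 and 3.11 TPM in exposed and 2.69, 0.85 and 0.38 TPM in control males, and its log2 fold change of 1.23 became 0.32 without male BPAF 1. The list's median of 0.47 became 0.24 without that library, against 0.09 over all genes. Of 36 fatty acid oxidation genes, 0 were higher or lower at that p, with a median of 0.23, and 0.04 without male BPAF 1. Fatty acid synthase, fasn, was at 3.34, 8.03 and 2.94 TPM in exposed and 4.94, 71.2 and 1.88 TPM in control males, with 1 high control.

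Of 34 glucose and glycogen genes, 2 were higher and 0 lower at an unadjusted p under 0.05, against 4.42% and 0.4% of all genes. The median was 0.26, against 0.24 over all genes. The lactate dehydrogenase gene ldha was at 17, 5.16 and 15.9 TPM in exposed and 2.87, 2.11 and 4.41 TPM in control males (log2 fold change 1.62). The glycogen synthase gene gys2 was at 68.8, 75.2 and 85.5 TPM in exposed and 41.6, 58.8 and 52.9 TPM in control males, without overlap (log2 fold change 0.58, and 0.20 with trimmed-mean scaling). The gluconeogenic gene pck1 overlapped, at 196, 53.9 and 170 TPM in exposed and 179, 92 and 50.6 TPM in control males.

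Immune genes leaned higher than the table. Of 47 tested genes of the interferon response and antigen presentation, 6 were higher and 0 lower at an unadjusted p under 0.05, 9 were higher without overlap, and 45 had a positive log2 fold change. The shares over all genes were 4.42% higher at that p, 9.66% higher without overlap and 81.2% positive. The median was 0.53, against 0.24 over all genes, 0.21 against -0.05 with trimmed-mean scaling, and 0.29 against 0.09 without male BPAF 1. The class II antigen-presenting gene mhc2a was at 50.5, 51.7 and 79.4 TPM in exposed and 28, 25.7 and 45.3 TPM in control males (log2 fold change 0.87). The interferon regulatory factor gene irf1b was at 12.2, 18.6 and 24.4 TPM in exposed and 3.65, 9 and 10.3 TPM in control males (log2 fold change 1.21), and gbp1, which encodes an interferon-induced GTPase, at 21.8, 20.9 and 10.6 TPM in exposed and 7.13, 10.6 and 5.37 TPM in control males (log2 fold change 1.09). The interferon-induced isg15, a ubiquitin-like protein, was highest in male BPAF 1, at 64.2, 25.8 and 14.5 TPM in exposed and 18.2, 11.3 and 14.5 TPM in control males. No member passed adjustment.

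Macrophage markers stood beside these genes. Of 19 tested, 4 were higher and 0 lower at an unadjusted p under 0.05, against 4.42% of all genes higher, with a median of 0.49. Leaving out male BPAF 1, 2 were higher, against 2.99%, and the median was 0.21, against 0.09. Of the 23 matched markers, 0 were listed at 0 in all males. Summed, the 19 tested markers were at 2437, 995 and 1365 TPM in exposed and 436, 810 and 912 TPM in control males. In male BPAF 1 most of this sum came from the genes grn1 and grn2. The gene grn1 was at 871, 384 and 300 TPM in exposed and 97, 245 and 351 TPM in control males, and its groups overlapped. The perforin-like marker mpeg1.1 was at 6.16, 6.4 and 7.52 TPM in exposed and 2.87, 2.37 and 4.98 TPM in control males, without overlap. The growth factor gene grn2 was at 973, 231 and 635 TPM in exposed and 30.7, 107 and 258 TPM in control males, with overlap. Of the 19 markers, 16 had a positive and 3 a negative log2 fold change, where 81.2% of all genes were positive. The marker csf1ra did not rise with exposure: it was at 14.75, 20.7 and 0.37 TPM in exposed and 4.05, 111 and 0.57 TPM in control males. In bulk tissue, more cells of a type and more RNA per cell cannot be told apart, and the part of macrophages in the antigen presentation genes was not tested.

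Of 28 inflammatory signalling genes, 3 were higher and 1 lower at an unadjusted p under 0.05, against 4.42% and 0.4% of all genes. Without male BPAF 1 there was 1 higher and 1 lower, against 2.99% and 0.801%, and the median of 0.49 became 0.05, against 0.09 over all genes. The chemokine gene cxcl8b.1 was at 3.17, 3.46 and 7.41 TPM in exposed and 1.15, 0.32 and 2.45 TPM in control males. The lower one was junba, which encodes a subunit of the early-response factor AP-1, at 19.6, 16.5 and 21.6 TPM in exposed and 42.1, 32.4 and 39.8 TPM in control males (log2 fold change -0.95 ± 0.29, limma adjusted p = 0.913). Its paralogue junbb was at 135, 70.15 and 117 TPM in exposed and 175, 163 and 161 TPM in control males, also without overlap. Both were lower in all 3 pairs, and trimmed-mean scaling put them at -1.32 for junba and -1.06 for junbb. The early-response genes as a list went both ways. Of 32 tested, 1 was higher and 1 lower at that p. Without male BPAF 1, 0 were higher and 2 lower, against 2.99% and 0.801% of all genes. Positive log2 fold changes numbered 21, where 81.2% of all genes were positive. In all 3 pairs, 9 were higher, against 35.4%, and 6 lower, against 3.02%.

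Of 35 tested genes of apoptosis and growth arrest, 3 were higher and 0 lower at an unadjusted p under 0.05, and 7 were higher without overlap. Over all genes, 4.42% were higher at that p and 9.66% without overlap. The death-promoting gene bik was at 4.66, 4.68 and 6.78 TPM in exposed and 1.58, 2.88 and 2.07 TPM in control males (log2 fold change 1.01), and bida at 14.9, 11 and 10.9 TPM in exposed and 7.7, 4.97 and 6.66 TPM in control males (log2 fold change 0.84). Without male BPAF 1 there was 1 higher and 1 lower, against 2.99% and 0.801%, and the list's median of 0.42 became 0.20, against 0.09 over all genes.

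Of 31 tested cell cycle genes, 5 were higher and 0 lower at an unadjusted p under 0.05, 8 were higher without overlap and 30 had a positive log2 fold change, against 4.42%, 9.66% and 81.2% of all genes for higher at that p, higher without overlap and positive. Beside ttk, the spindle gene tpx2 was at 1.95, 1.74 and 1.66 TPM in exposed and 0.17, 0.19 and 1.14 TPM in control males, and top2a, a DNA topoisomerase of dividing cells, at 2.64, 1.21 and 1.32 TPM in exposed and 0.3, 0.47 and 0.77 TPM in control males. These levels are low, near the 1 TPM rule, and the proliferation marker mki67 stayed under the rule at 0.81, 0.36 and 0.26 TPM in exposed and 0.11, 0.17 and 0.13 TPM in control males. For ttk and top2a only exposed males reached 1 TPM, so the rule fixed their lack of overlap. The list's median was 0.37, against 0.24 over all genes, and 0.29 without male BPAF 1, against 0.09.

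The list farthest from the table was that of intestinal epithelium. Of 27 tested members, 15 were higher and 0 lower at an unadjusted p under 0.05, against 4.42% of all genes, and 18 were higher in all 3 same-numbered pairs, against 35.4%. Without overlap, 7 were higher, against 9.66%, and 1 lower. Leaving out male BPAF 1, 6 were higher and 0 lower at that p, against 2.99%. The median was 1.46, against 0.24 over all genes, 1.2 with trimmed-mean scaling and 1.69 without male BPAF 1. Of its 31 matched members, 0 were listed at 0 in all males, and rbp2a and afp4 are abundant in this liver.

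The intestinal genes covered digestion and uptake at the gut surface. The brush-border protease gene mep1b was at 11.67, 9.86 and 20 TPM in exposed and 0.42, 0.12 and 7.44 TPM in control males. The fatty acid carrier fabp2 was at 238, 103 and 372 TPM in exposed and 83.2, 10.7 and 101 TPM in control males. In both genes the groups did not overlap. The log2 fold changes were 2.58 for mep1b and 2.18 for fabp2.

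For other members the control males themselves were spread out, and number 3 was high in both groups. The chitinase gene chia.1 was at 153, 97.2 and 466 TPM in exposed and 2.8, 0.34 and 126 TPM in control males. The fatty acid carrier fabp1b.1 was at 676, 167 and 698 TPM in exposed and 32.1, 4.95 and 296 TPM in control males, and vil1, which encodes a microvillus protein, at 14.9, 7.29 and 50.8 TPM in exposed and 1.68, 0.33 and 13 TPM in control males. Each of the 3 was higher in every pair and overlapped between groups. With the replicate block, 18 of the 27 were higher at an unadjusted p under 0.05, against 10.6% of all genes. Not all members followed: 24 of the 27 had a positive and 3 a negative log2 fold change, where 81.2% of all genes were positive. In all 3 pairs, 2 members were lower, against 3.02% of all genes. The abundant afp4 was at 3645, 3124 and 2183 TPM in exposed and 4767, 3201 and 4073 TPM in control males (log2 fold change -0.44), lower in every pair. An ileal bile acid carrier, fabp6, was at 0.85, 1.52 and 4290 TPM in exposed and 7.03, 0.19 and 726 TPM in control males, so it was high in both number 3 libraries.

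The genes with the smallest p under the replicate block included further ones known from gut lining. These were chosen after their values were seen. The mucin gene muc13b was at 20.7, 10 and 53.4 TPM in exposed and 2.83, 0.96 and 10 TPM in control males, with a block adjusted p of 0.105 in limma. The peptidase gene ace was at 9.65, 5.11 and 38.2 TPM in exposed and 1.08, 0.17 and 7.5 TPM in control males. Both were higher in all 3 pairs.

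**Figure D3:**
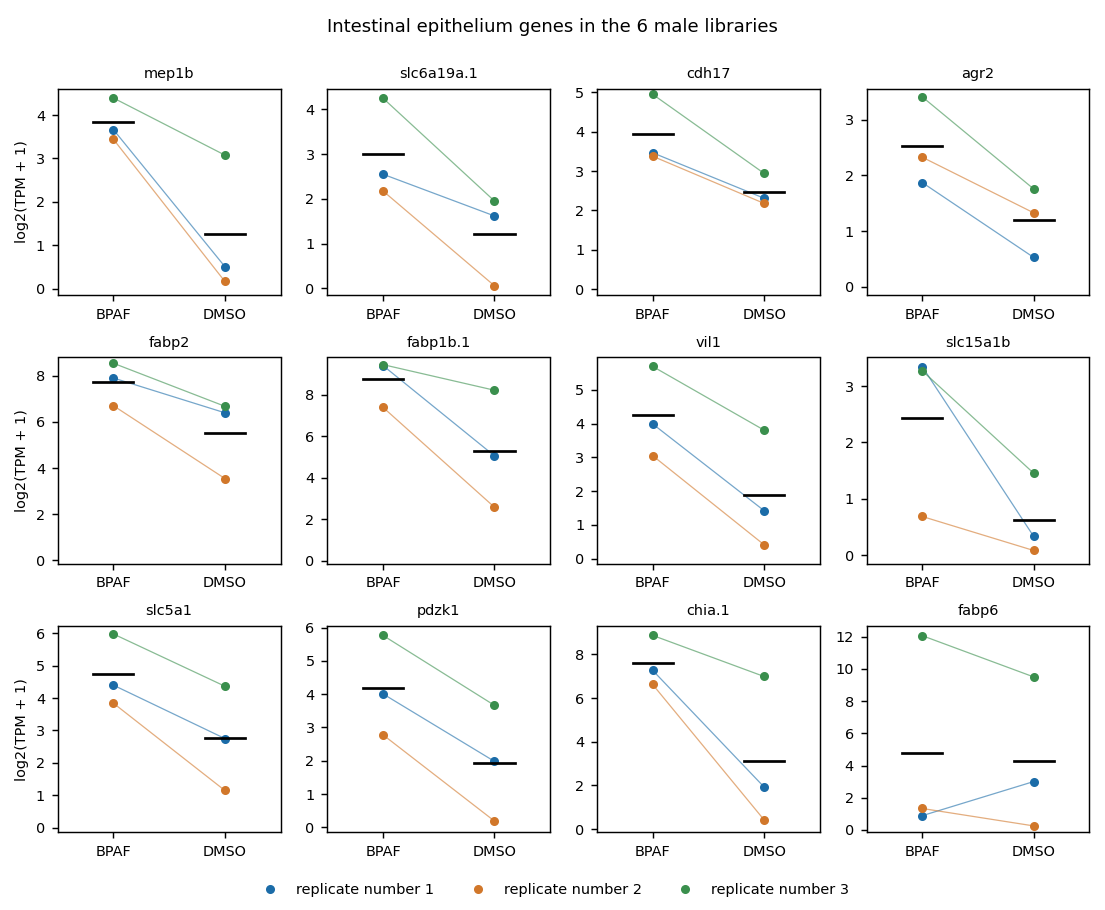
Levels as log2(TPM + 1) of 12 genes of intestinal epithelium in the 6 male libraries, exposed at the left and control at the right of each panel, with lines joining same-numbered libraries and black bars at the group means. In 11 panels every line is higher at BPAF, while in fabp6 number 1 is lower and number 3 is near 4290 TPM in the exposed and 726 TPM in the control male. The list member afp4, lower at BPAF in all 3 pairs, is not shown.

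The part of gut tissue in these values was not tested. Averaged as log2(TPM + 1), the 27 intestinal genes were at 4.98, 4.16 and 6.22 in exposed and 3.51, 2.35 and 4.87 in control males. The groups overlapped in this mean, since the exposed male of number 2 was below the control male of number 3. Their summed level was 7884 to 12961 TPM in exposed and 6644 to 8397 TPM in control males. Much of this sum came from 2 genes abundant in this liver. The gene afp4 averaged 2984 TPM in exposed and 4014 TPM in control males, and rbp2a 2822 and 1839 TPM. In male BPAF 3, fabp6 added 4290 TPM. In the female libraries, fabp2 averaged 9.84 ± 9.98 TPM in the exposed and 14.2 ± 17.4 TPM in the control group (SD, n = 3 libraries each).

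Genes of the exocrine pancreas, which in zebrafish lies in strands along the gut and near the liver, leaned the other way. Of 26 tested, 3 had a positive log2 fold change, against 81.2% of all genes, and 10 were lower in all 3 same-numbered pairs, against 3.02%. At an unadjusted p under 0.05, 0 were higher or lower, against 4.42% and 0.4% of all genes. The median was -0.64, against 0.24 over all genes, and -0.50 without male BPAF 1, against 0.09. The elastase gene ela3l was at 10.6, 10.4 and 32.9 TPM in exposed and 13.3, 41 and 40.5 TPM in control males, and the trypsin gene prss59.2 at 22.7, 17.8 and 72.3 TPM in exposed and 26.4, 66.8 and 116 TPM in control males. The most abundant member, zgc:66313, went the other way, at 111, 202 and 180 TPM in exposed and 108, 210 and 122 TPM in control males (log2 fold change 0.18). The next, prss1, was at 61.7, 35.25 and 134 TPM in exposed and 44.4, 154 and 146 TPM in control males, higher in pair number 1. The sum of the list was 396, 391 and 807 TPM in exposed and 316, 886 and 969 TPM in control males, so the groups overlapped.

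Other cell types gave single genes. Of 9 tested muscle markers, 2 were higher and 0 lower at an unadjusted p under 0.05, against 4.42% and 0.4% of all genes. Without male BPAF 1 there were also 2 higher and 0 lower, against 2.99% and 0.801%. The 2 over all 6 libraries were nmrk2 and the myosin gene myhb. The latter was at 1.07, 1.01 and 1.57 TPM in exposed and 0.07, 0.08 and 0.29 TPM in control males. Only exposed males reached 1 TPM of myhb, so the expression rule kept it through them. The cardiac light chain gene myl7 was at 278, 0 and 0 TPM in exposed and 31.6, 1.73 and 0.98 TPM in control males, so it was highest in male BPAF 1 and next in male DMSO 1. The oxygen carrier mb was at 273, 15.5 and 21.9 TPM in exposed and 26.5, 18.2 and 23 TPM in control males, high in male BPAF 1. The muscle list's median of 0.95, against 0.24 over all genes, became 0.10 without that library, against 0.09. The immunoglobulin light chain gene igl1c3, from B cells, was at 1.81, 3.76 and 6 TPM in exposed and 0.54, 0 and 1.11 TPM in control males.

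Among the 13 tested mitochondrially encoded genes, mt-nd4l, a subunit of respiratory complex I, was at 1269, 1093 and 1505 TPM in exposed and 674, 631 and 621 TPM in control males (log2 fold change 0.99 ± 0.25, limma adjusted p = 0.892). The median of the list was 0.12, and 0.27 without male BPAF 1. The cytochrome oxidase gene mt-co2 was at 21346, 25558 and 22762 TPM in exposed and 19916, 24792 and 19600 TPM in control males. The 81 nuclear-encoded respiratory genes had a median of 0.09 and the 82 ribosomal protein genes 0.04, against 0.24 over all genes. Without male BPAF 1 these medians were 0.02 and 0.04, against 0.09.

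**Figure D4:**
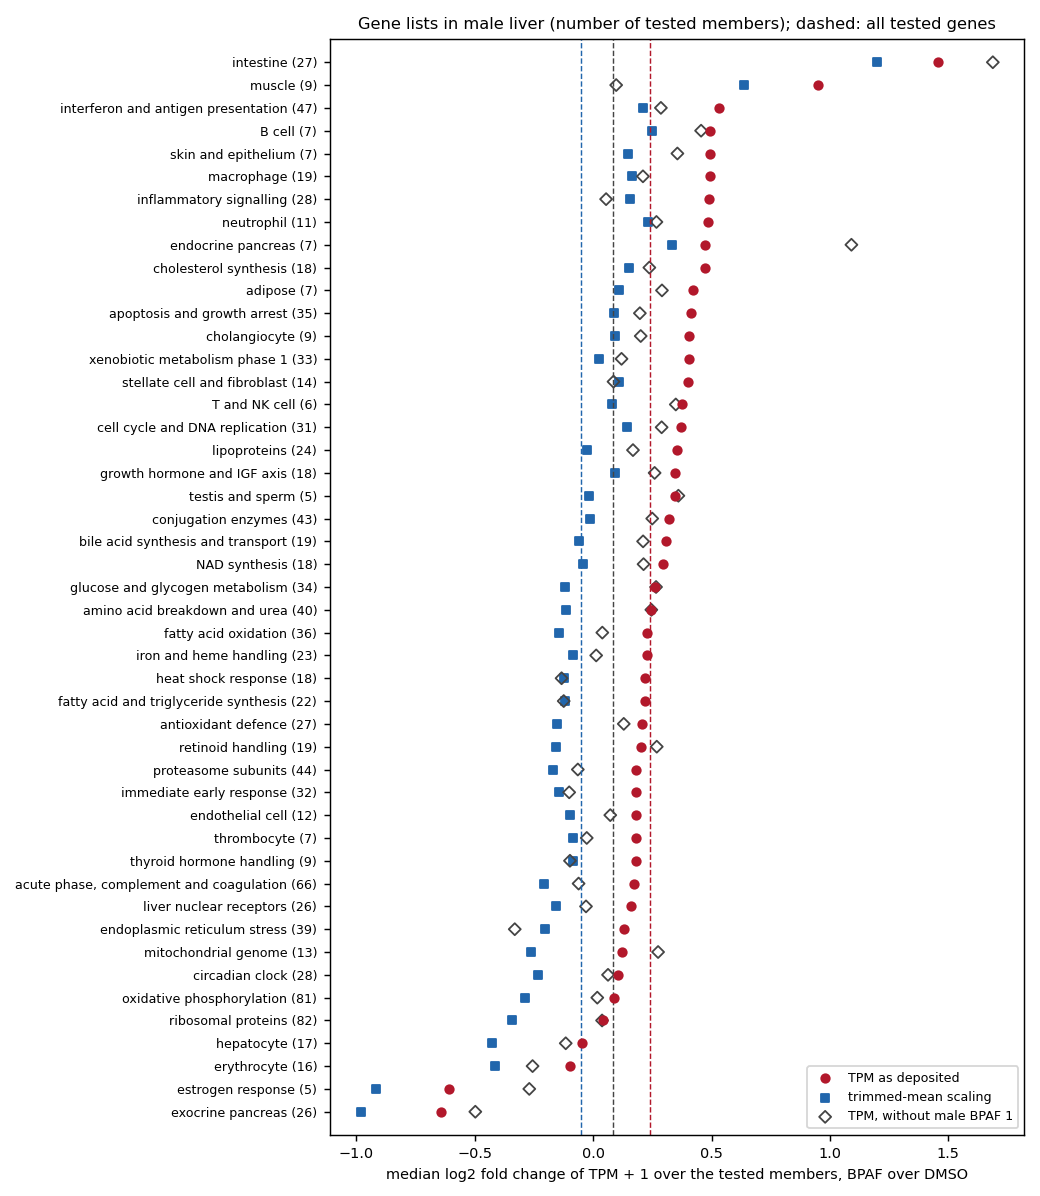
Median log2 fold change of TPM + 1, BPAF over DMSO, of each gene list with its number of tested members: red circles for TPM as deposited, blue squares with trimmed-mean scaling, and open diamonds without male BPAF 1. Dashed lines mark the median of all tested genes in the same order (0.24, -0.05 and 0.09); intestine lies farthest to the right (1.46) and exocrine pancreas farthest to the left (-0.64).

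Much of the variation between the male libraries went with the replicate number, which exposed and control libraries share. The sum of squares of log2(TPM + 1) was split for each gene into replicate number, with 2 of the 5 degrees of freedom, treatment, with 1, and the remainder, with 2. The median share was 57.3% for the number, 14.2% for treatment and 17.7% for the remainder. The number had a larger share than treatment in 8185 of the 10491 genes. With 2 degrees of freedom against 1, noise alone would give that in most genes, so this count shows little by itself. The remainder, also with 2, is the like comparison for the number. Of the genes averaging at least 20 TPM, 573 had a share of 80% or more for the number. The labels do not say what the number stands for.

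The genes described next were chosen after their values were seen, and their pattern is a description. The liver pyruvate kinase gene pklr, of glycolysis, was at 433, 2672 and 2285 TPM in exposed and 471, 2469 and 2215 TPM in control males. The lipogenic gene thrsp was at 6.9, 1145 and 111 TPM in exposed and 18.4, 1135 and 39.7 TPM in control males. Both were lowest in number 1 and highest in number 2, in exposed and control males alike.

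The glucose transporter gene slc2a2 was also highest in number 2, at 117, 336 and 105 TPM in exposed and 155, 917 and 67.4 TPM in control males. Insulin, ins, a hormone of the pancreatic islet, was at 2.82, 75.2 and 13.8 TPM in exposed and 2.92, 53 and 17.5 TPM in control males. The bile acid enzyme cyp7a1 had another order, with 0.84, 16.7 and 79.9 TPM in exposed and 4.4, 8.83 and 49.3 TPM in control males, highest in number 3. The iron hormone hamp was lowest in number 2, at 489, 122 and 367 TPM in exposed and 764, 61.6 and 393 TPM in control males. In each of these, the range over the numbers within a group was wider than the difference between the group means.

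**Figure D5:**
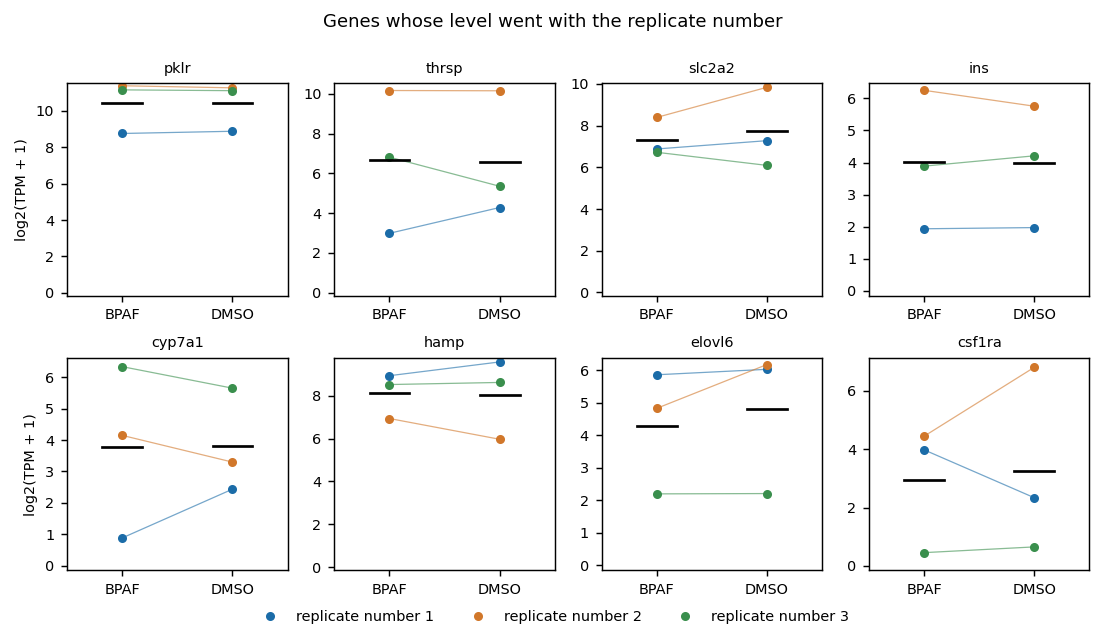
Levels as log2(TPM + 1) of 8 genes in the 6 male libraries, exposed at the left and control at the right of each panel, with lines joining same-numbered libraries and black bars at the group means. In pklr the lines run nearly level and apart from each other, with number 1 at 433 and 471 TPM and number 2 at 2672 and 2469 TPM.

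Against the female response, 0 of 10491 genes (0%) passed for the difference between the sexes, and 349 were at an unadjusted p under 0.05. With 0.1 TPM added in place of 1 the gene FO704772.1 passed, and with 5 TPM added CR788316.1 passed. FO704772.1 averaged 0.0233 TPM in control females, and CR788316.1 averaged 0.0667 TPM in exposed and 0.287 TPM in control females. Expression near 0 in females is therefore part of both contrasts.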

How the data were processed

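The comparison used 6 RNA sequencing libraries of male liver, 3 exposed and 3 control, grouped by their labels. The 6 female libraries served for the difference between sexes, for the fit over all 12 libraries, and for levels and spread set beside those of males. The deposited values were taken as TPM made by the authors: the file header names no unit, and this was inferred from their 2 decimals and their sums of 978505 to 992375 per library. The submitters' processing notes name RSEM, Cufflinks and HISAT2 2.1.0 but not what each did. Build and annotation were not given in the sources used here, and no coordinates are printed. The 4 columns of group means were not used as replicates, and 0 columns were unassigned. TPM keep no depth, so depth is unknown and no counting intervals were computed.

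The male libraries alone (4 residual degrees of freedom) were fitted on the scale log2(TPM + 1), using limma 3.58.1 (R 4.3.3) and a variance prior that follows the level, and p-values were adjusted by Benjamini-Hochberg over all 10491 genes. The script was run on simulated data with independent normal noise and known fold changes. These held no shared replicate effect and no library shift, so they check the code and not its fit to these libraries. Fold changes understate those of low genes, and a trimmed mean of log ratios and quantile normalization were alternatives. The deviations from the group means correlated at 0.325, 0.364 and 0.397 between same-numbered libraries, with numbers from the titles. They correlated at -0.261 to -0.117 between the others, which adds no evidence, because deviations cancel within a group. The numbers were taken to pair the samples on this basis. With 3 libraries per group few matchings are possible, so a pairing is not established.

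The members and the 49 gene lists were chosen with earlier results of these data known. Genes were named by rule: up to 12 per direction by p, with a log2 fold change of size 1 or more and no overlap; up to 8 more by fold change at 50 TPM or more; the 2 most abundant members and the one with the smallest p of each list; a fixed panel; up to 4 per direction for the difference between sexes; and genes called earlier over 12 libraries. Other genes named with their list were chosen after their values were seen. Some genes that these rules name are not reported here. A list is described by its counts and median, with no test.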

Additional observations from a re-analysis of the deposited data

Results flagged for a closer look

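The neural adhesion gene ncam1a was flagged because its groups separated in opposite directions in the sexes, so that pattern is how it was chosen. It was at 5.64, 2.03 and 1.85 TPM in exposed and 0.67, 0.38 and 0.96 TPM in control males, and at 1.33, 0.4 and 1.89 TPM in exposed and 7.75, 9.97 and 3.87 TPM in control females. All 3 exposed males lay above all control males, and all 3 exposed females below all control females. Among the males, only exposed ones reached 1 TPM, so the rule that kept this gene fixed its separation in males. The difference between the male and the female log2 fold change was 3.10 ± 0.57 (SE), with a limma adjusted p of 0.344 over 10491 genes, so it did not pass.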

How the results depend on the processing

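Genes called in males numbered 8 over all 12 libraries, and 0 to 1 with each male library left out in turn. At an unadjusted p under 0.05, the 464 higher genes became 1320 with no filter on low values, 164 with a filter at 5 TPM, 185 under trimmed-mean scaling, 182 under quantile normalization, 1107 in the fit with a replicate block, and 314 to 598 with each library left out in turn. The 42 lower genes became 90, 18, 167, 150 and 87 under the same settings, 75 with array quality weights, and 45 to 85 with a library left out (84 without male BPAF 1, 85 without male DMSO 1 and 85 without male DMSO 3). Alternatives added after seeing the data gave 279 higher and 97 lower genes without number 1 of both groups, and 202 higher and 157 lower with trimmed-mean scaling without male BPAF 1. Genes without overlap became 2524 higher and 124 lower with no filter, 358 and 32 with the filter at 5 TPM, 307 and 504 under trimmed-mean scaling, and 330 and 401 after quantile normalization. The filters changed how many genes were tested; the cause of the other shifts was not tested. The difference between sexes called 1 gene with 0.1 TPM added and 1 gene with 5 TPM added. Over all genes, trimmed-mean scaling gave a median of -0.052 (-0.035 without male BPAF 1), quantile normalization one of -0.017, and leaving out 1 library medians of 0.09 to 0.33. Of 183 named genes, 46 had the other sign under trimmed-mean scaling and 21 after quantile normalization. Of 48 gene lists compared, the median took the other sign in 26 under trimmed-mean scaling and in 15 after quantile normalization. Leaving out male BPAF 1 turned the sign in 9. The replicate block changed no call. TPM carry no depth, so what depth limits is unknown.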

Other observations

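The endoplasmic reticulum stress genes went both ways, with 23 of 39 positive and 16 negative log2 fold changes, where 81.2% of all genes were positive. The chaperone gene hspa5 was at 499, 18.2 and 11 TPM in exposed and 75.5, 21.8 and 201 TPM in control males, with the highest value in male BPAF 1 and the next in male DMSO 3. Of 39 tested genes of this response, 1 was higher and 0 lower at an unadjusted p under 0.05, against 4.42% and 0.4% of all genes. The median log2 fold change was 0.13, against 0.24. Leaving out male BPAF 1, 0 were higher and 3 lower, against 2.99% and 0.801%, and the median was -0.33, against 0.09. Of 66 genes of the acute phase, complement and coagulation, 1 was higher and 0 lower at that p, with a median of 0.17 (-0.06 without male BPAF 1), and of 28 circadian clock genes 0 were higher or lower, with a median of 0.11.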
